A study of Mus musculus with 12 samples.

Results

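The citrate cycle enzymes described here were 9 genes chosen by name: Cs, Idh2, Idh3a, Idh3b, Idh3g, Ogdh, Sucla2, Fh1 and Mdh2. They were 9 of the 17007 genes listed, and all 9 were among the 14397 genes with enough signal to be tested. RNA was sequenced in 12 libraries, in 4 groups of 3. Normal livers came from wild-type C57BL/6 mice, which carried neither the plasmids nor the floxed alleles. All tumors were c-MYC/MCL1/RictorKOTsc2KO hepatocellular carcinomas (HCCs), raised in C57BL/6J mice floxed at both loci (Rictor fl/fl and Tsc2 fl/fl) by hydrodynamic tail vein injection of c-MYC, MCL1 and Cre plasmids with the Sleeping Beauty transposase. Cre was driven by a CMV promoter on a plasmid, so that recombination depended on plasmid uptake by hepatocytes. The tumor mice were given vehicle, MLN0128 (which blocks the mTOR kinase in both of its complexes) or everolimus (a rapamycin analog, which inhibits mTORC1). The drugs were given by gavage at 1 mg/kg per day on 6 days a week for 3 weeks, from 6 days after injection, and mice were sacrificed 3.7 weeks after injection. The methods and labels give this schedule. For the sequenced tumors, however, the study's results section gives 3 days of treatment. Which of these holds for the libraries is not known, and they were used as labelled. Ages were not given, and mice of both sexes were used in the study as a whole.

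The citrate cycle runs in the mitochondrial matrix and oxidizes acetyl groups to carbon dioxide, passing electrons to the respiratory chain. Citrate synthase joins acetyl-CoA to oxaloacetate, isocitrate and 2-oxoglutarate are then decarboxylated, and fumarate and malate are turned back into oxaloacetate. In hepatocytes the cycle also feeds other pathways, since citrate leaves the matrix for lipid synthesis and malate for gluconeogenesis.

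Libraries held 17166371 to 25187078 reads, recovered from the deposited FPKM (a fragment level per kilobase, scaled to library size) and exon lengths. The 9 enzymes had between 505 (Idh3a) and 14939 (Mdh2) reads in a library, so counting error was small beside the spread between libraries. The targeted genes, read over their whole length and not over the floxed exons, ranged in normal liver and vehicle tumors from 1.65 to 2.57 and 1.05 to 1.5 FPKM for Rictor and from 4.50 to 5.32 and 2.01 to 2.31 FPKM for Tsc2. With MLN0128 and everolimus they were at 1.65 to 2.21 and 1.58 to 1.93 FPKM for Rictor and at 2.81 to 3.96 and 2.78 to 2.87 FPKM for Tsc2. Of the hepatocyte markers, 7 were found, and their FPKM summed to 85100 to 104000 in normal liver against 5280 to 7560 in vehicle, 2920 to 5780 in MLN0128 and 4100 to 9770 in everolimus tumors, with no marker at 0 in all libraries of a group. MLN0128 replicates 1 and 2 held Xist RNA (191 and 155 FPKM) and 0 FPKM of the Y-linked genes Ddx3y, Eif2s3y, Kdm5d and Uty, unlike the remaining libraries, so values without them are given where the call of an enzyme was lost. In comparisons with MLN0128, the X and Y content of these 2 libraries cannot be told apart from the drug.

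The promoters of 5 enzymes that changed over 2-fold in tumors are shown first, to set the genes that rose in tumors (Cs, Idh2 and Mdh2) beside those that fell (Sucla2 and Fh1). Each runs from 130 bases before to 20 bases after the RefSeq start of transcription, on the strand of the gene in GRCm38.p6. Capitals mark the GC box GGGCGG, the CCAAT box CCAAT and the ETS core CCGGAA, each in either direction.
Cs, chr10:128337597-128337746, + strand: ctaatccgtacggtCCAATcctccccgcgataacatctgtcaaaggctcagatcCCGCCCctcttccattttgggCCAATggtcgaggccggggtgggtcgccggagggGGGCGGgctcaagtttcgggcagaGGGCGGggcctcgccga
Idh2, chr7:80115331-80115480, - strand: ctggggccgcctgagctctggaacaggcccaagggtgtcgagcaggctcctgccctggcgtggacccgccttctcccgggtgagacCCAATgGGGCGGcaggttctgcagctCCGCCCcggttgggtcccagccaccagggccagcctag
Mdh2, chr5:135778519-135778668, + strand: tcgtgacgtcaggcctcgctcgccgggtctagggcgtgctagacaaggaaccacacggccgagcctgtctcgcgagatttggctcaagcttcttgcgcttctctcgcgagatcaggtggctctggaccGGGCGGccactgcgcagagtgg
Sucla2, chr14:73552656-73552805, + strand: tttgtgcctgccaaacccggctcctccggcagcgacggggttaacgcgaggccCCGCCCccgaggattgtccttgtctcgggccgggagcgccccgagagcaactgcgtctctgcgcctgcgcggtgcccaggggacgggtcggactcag
Fh1, chr1:175625616-175625765, - strand: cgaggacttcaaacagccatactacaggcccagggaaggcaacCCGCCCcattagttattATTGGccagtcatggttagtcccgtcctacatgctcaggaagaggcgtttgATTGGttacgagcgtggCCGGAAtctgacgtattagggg
RefSeq entries were found for 8 of the 9 genes. Over the whole entry of 300 bases, from 250 before to 50 after the start, GGGCGG on either strand was present for 6 of the 8 (Cs, Fh1, Idh2, Mdh2, Ogdh and Sucla2), and in 35.7% of all 32851 promoter entries. CCAAT on either strand was present for 5 (Cs, Fh1, Idh2, Idh3b and Ogdh) and in 37.4% of all entries. CCGGAA on either strand was present for Fh1, Idh3b and Idh3g and in 14.9% of all entries. The E-box CACGTG, a sequence that MYC with MAX can bind, was present among the members in 3 of the 6 entries of Ogdh alone and in 7.15% of all entries. In the printed stretches, then, genes that rose and genes that fell both carried GC boxes and, apart from Mdh2 and Sucla2, CCAAT boxes, and none carried the E-box.

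The first comparison asked how the enzymes of the cycle differed between vehicle-treated tumors and normal liver. The cycle did not shift as a block. Citrate synthase, Idh3a, Idh2 and Mdh2 were 2.33-fold to 2.8-fold higher in tumors, Idh3g was 1.34-fold higher, Sucla2 and Fh1 were 2.8-fold and 2.83-fold lower, and Idh3b and Ogdh did not pass the test. Of the 9 genes 5 were higher, where 36.0% of all tested genes were called higher, and 2 were lower, where 33.0% of all tested genes were called lower (limma's moderated test on log2(FPKM + 1), Benjamini-Hochberg adjusted p under 0.05 over all 14397 genes). Fold changes are on the log2(FPKM + 1) scale. The median log2 fold change of the 9 was 0.42, against 0.06 over all tested genes. With the stricter treat test against a 1.5-fold change, 4 remained higher (Cs, Idh2, Idh3a and Mdh2), with 15.9% of all genes called, and 2 remained lower, with 16.9% of all genes called. In bulk RNA, fewer cells of a type and less RNA per cell cannot be told apart. The labels do not say whether all libraries of a group came from separate mice, so p-values measure only the spread between these libraries, which may in part be technical. The Xist and Y-linked values set MLN0128 replicate 3 apart from replicates 1 and 2.

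**Figure D1:**
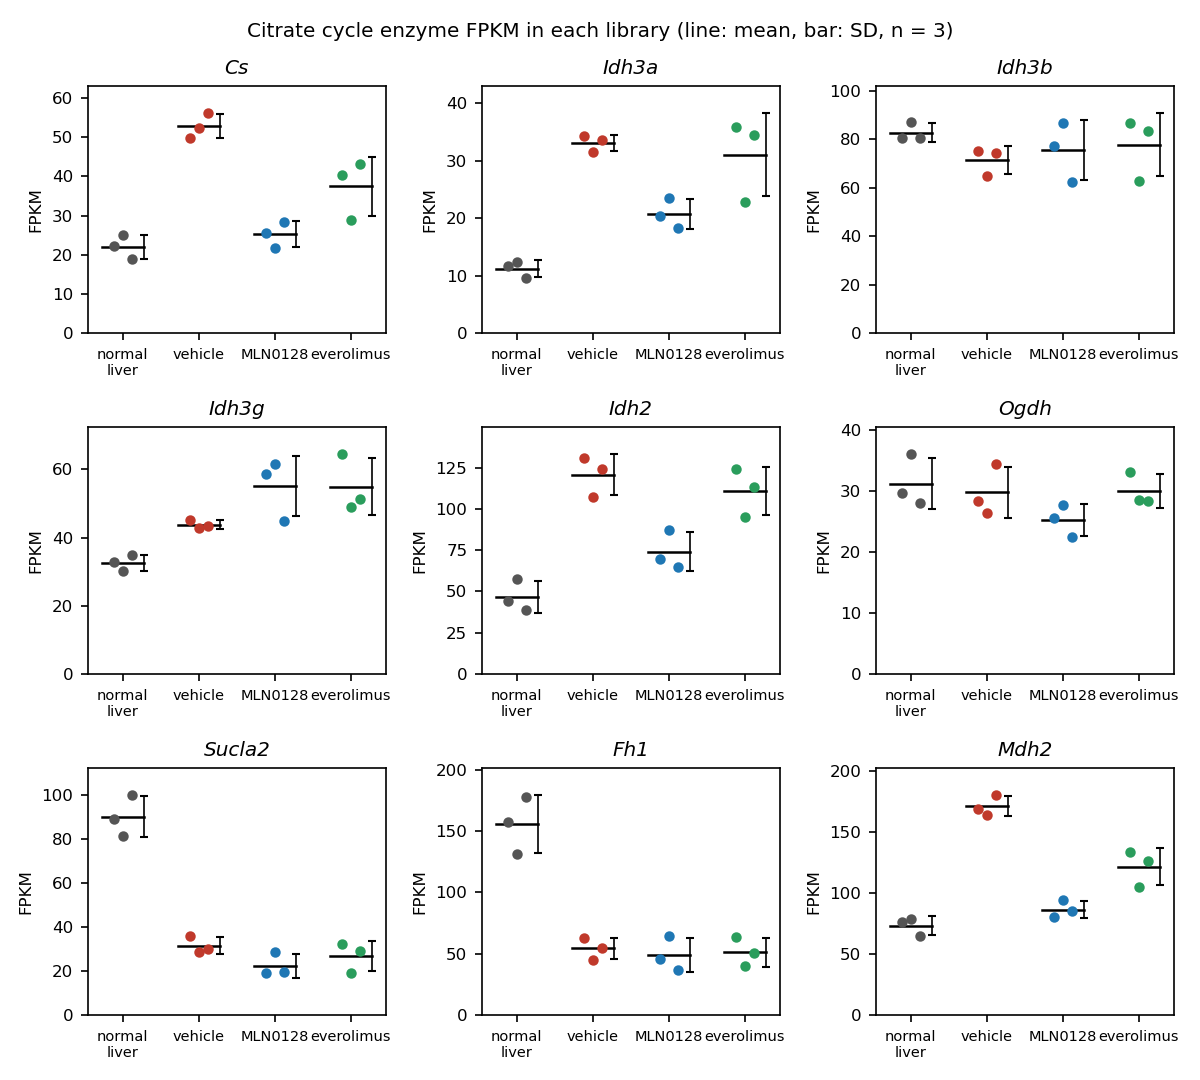
FPKM of the 9 enzymes in each of the 12 libraries, in the order of the cycle, with the group mean (line) and SD (bar, n = 3) on axes that start at 0. Cs, Idh3a, Idh2 and Mdh2 are raised in vehicle tumors (for Cs, 49.9 to 56.1 FPKM against 18.8 to 25.0 in normal liver), while Sucla2 and Fh1 are highest in normal liver and low in all tumor groups.

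Cs (ENSMUSG00000005683.8, chr10:128337734-128362479, + strand of GRCm38) encodes citrate synthase, which opens the cycle. In the normal livers it stood at 22.2, 25.0 and 18.8 FPKM, and in the vehicle tumors at 49.9, 52.5 and 56.1 FPKM. All 3 tumors lay well above all 3 livers, with a log2 fold change of 1.23 (limma SE 0.163, adjusted p = 3.47e-05).

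The isocitrate step is carried out by an NAD-dependent enzyme, in which Idh3a is the catalytic subunit and Idh3b and Idh3g are the others, and by the NADP-dependent enzyme Idh2, which supplies matrix NADPH. Idh3a (ENSMUSG00000032279.11, chr9:54586334-54604661, + strand) had the lowest level of the 9 in normal liver, 11.7, 12.4 and 9.54 FPKM, and reached 34.2, 31.5 and 33.6 FPKM with vehicle. This was the largest rise among the 9, 1.49 on the log2 scale (SE 0.168, adjusted p = 1.01e-05). Idh3g (ENSMUSG00000002010.17, chrX:73778963-73786897, - strand) went from 32.8, 30.1 and 34.9 FPKM to 45.3, 42.8 and 43.4 FPKM, a smaller rise of 0.42 without overlap between the groups (SE 0.141, adjusted p = 0.0199). That call was lost without normal liver replicate 2 (adjusted p = 0.0672) and without vehicle replicate 1 (0.0577), and over the alternatives apart from treat the adjusted p ran from 1.58e-07 to 0.0672. Idh3b (ENSMUSG00000027406.12, chr2:130279309-130284547, - strand) measured 80.4, 87.3 and 80.7 FPKM in normal liver against 75.3, 64.7 and 74.3 FPKM in vehicle tumors, a log2 difference of -0.21 (95% interval -0.55 to 0.12, adjusted p = 0.238), which turned to 0.71 with plain library totals and 0.98 with equal FPKM sums, where the median of all genes was itself 0.62 and 1.00. After quantile normalization it was 0.54 and passed as higher (adjusted p = 0.00146), with the median of all genes at 0.04. It overlaps Nop56 on the opposite strand, and since the counting was not stated to use strand, reads of the overlap cannot be told apart. Idh2 (ENSMUSG00000030541.16, chr7:80094846-80115392, - strand) measured 44.0, 57.6 and 38.7 FPKM in normal liver against 131, 107 and 124 FPKM in vehicle tumors. The tumors were above the livers throughout, by 1.36 on the log2 scale (SE 0.173, adjusted p = 2.56e-05).

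The next steps turn 2-oxoglutarate into succinate. Ogdh (ENSMUSG00000020456.17, chr11:6291633-6356642, + strand), the first component of the 2-oxoglutarate dehydrogenase complex, measured 29.7, 36.0 and 28.0 FPKM in normal liver against 28.4, 26.4 and 34.5 FPKM in vehicle tumors. The groups overlapped, with a log2 difference of -0.07 (95% interval -0.37 to 0.23, adjusted p = 0.677), which turned to 0.83 with plain library totals, 1.11 with equal FPKM sums and 0.30 after quantile normalization (adjusted p = 0.0531 in the last). Sucla2 (ENSMUSG00000022110.13, chr14:73525319-73596142, + strand), the ADP-forming subunit of succinyl-CoA ligase, fell from 89.4, 81.7 and 100 FPKM to 36.0, 28.8 and 30.1 FPKM. All tumors lay below all livers, by 1.49 on the log2 scale (SE 0.200, adjusted p = 4.02e-05).

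Fumarase and malate dehydrogenase close the cycle, and they moved in opposite directions. Fh1 (ENSMUSG00000026526.14, chr1:175600374-175625635, - strand) was the highest of the 9 in normal liver, at 157, 131 and 178 FPKM, and was at 62.8, 45.1 and 54.8 FPKM with vehicle. It fell by 1.5 on the log2 scale (SE 0.225, adjusted p = 9.73e-05), with no overlap. Mdh2 (ENSMUSG00000019179.10, chr5:135778480-135790398, + strand) went the other way, from 76.1, 78.9 and 64.5 FPKM to 169, 164 and 180 FPKM, a rise of 1.22 (SE 0.131, adjusted p = 6.86e-06) and the smallest p of the 9. Fh1 overlaps Kmo on the opposite strand. With equal FPKM sums in each library, the falls shrank to -0.31 for Sucla2 (adjusted p = 0.0606) and -0.32 for Fh1 (adjusted p = 0.104), while the median of all genes moved to 1.00, and after quantile normalization they were -0.79 (adjusted p = 0.00249) and -0.60 (adjusted p = 0.0154). Summed hepatocyte markers were lower in the same tumors, as given above. So were the summed FPKM of 6 endothelial markers (41.1 to 51.1 in normal liver against 14.8 to 20.2 in vehicle tumors), 6 macrophage markers (143 to 184 and 71.4 to 112), 7 stellate and fibroblast markers (61.8 to 86.1 and 22.9 to 48.6) and 6 leukocyte markers (1.93 to 2.58 and 0.982 to 1.05). Single markers did not all follow their sum. Of the stellate and fibroblast markers 3 were called higher and 4 lower, and of the macrophage markers 1 higher and 3 lower. Of the endothelial markers 4 were called lower and 0 higher, and of 2 tested leukocyte markers 0 were called. Of all tested genes 36.0% were called higher and 33.0% lower. The part of these cell types in the values of the enzymes was not tested.

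These opposite moves changed the share of each enzyme in the summed FPKM of the 9. That sum leaves out complex II and the other genes of the cycle, so the shares are not shares of the cycle's RNA. Fh1 made up 28.5% ± 3.98 of that sum in normal liver (SD, n = 3) and 8.88% ± 0.977 with vehicle, and Sucla2 16.6% ± 1.48 and 5.20% ± 0.468. Mdh2 went from 13.4% ± 1.56 to 28.1% ± 1.25 and Idh2 from 8.59% ± 1.88 to 19.8% ± 0.868. The shares do not depend on a factor applied to a whole library, but the total does. As deposited, the 9 FPKM values summed to 543, 540 and 553 in the normal livers and to 632, 563 and 631 with vehicle. With plain library totals the sums averaged 322 ± 1.86 for the normal livers against 689 ± 48.0 for the vehicle tumors, and with equal FPKM sums 705 ± 7.13 against 1810 ± 181 (SD, n = 3).

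**Figure D2:**
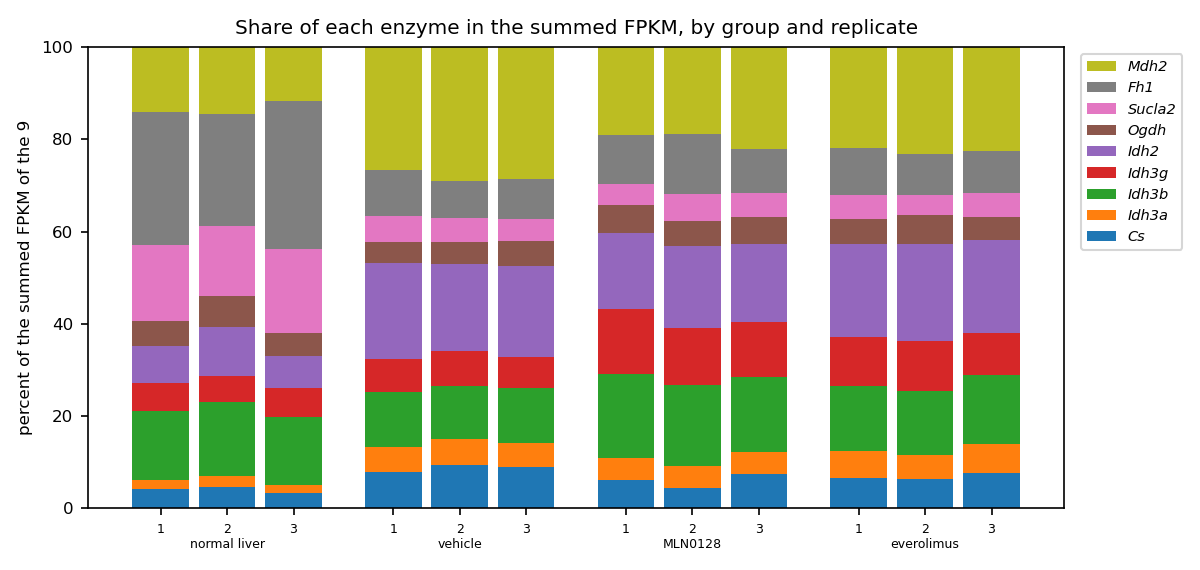
Share of each of the 9 enzymes in their summed FPKM, 1 bar per library, grouped as normal liver, vehicle, MLN0128 and everolimus (replicates 1 to 3). Fh1 and Sucla2 fill much of the bars of normal liver (28.5% and 16.6% on average) and little of the tumor bars, where Mdh2 and Idh2 take the most.

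Ordered by level, normal liver ran from Fh1 through Sucla2, Idh3b, Mdh2, Idh2, Idh3g, Ogdh and Cs to Idh3a, and the neighbours Sucla2 and Idh3b, and Idh3g and Ogdh, overlapped between libraries. With vehicle the order was Mdh2, Idh2, Idh3b, Fh1, Cs, Idh3g, Idh3a, Sucla2 and Ogdh. There, Fh1 overlapped Cs, Idh3a overlapped Sucla2, and Sucla2 overlapped Ogdh. Mdh2 had the highest mean in every tumor group, and with MLN0128 its range overlapped that of Idh3b and with everolimus that of Idh2. The lowest was Idh3a with MLN0128 (20.7 ± 2.62 FPKM) and Sucla2 with everolimus (26.9 ± 6.73 FPKM), both overlapping their neighbour.

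The second comparison asked which of the enzymes changed when the mTOR kinase was blocked. It used the same vehicle libraries as the first comparison, so high values in them raise a gene there and lower it here. A match between these comparisons is therefore partly built in, and how far was not tested. With MLN0128, the 4 enzymes that had risen most in tumors were lower than with vehicle, with log2 fold changes of -1.04 for Cs, -0.98 for Mdh2, -0.70 for Idh2 and -0.66 for Idh3a. Of the 9 genes 4 were lower, where 17.1% of all tested genes were called lower, and 0 were higher by limma's moderated test, where 14.9% of all tested genes were called higher (1 was higher at an unadjusted p under 0.05, and 0 with voom on recovered reads). The median log2 fold change of the 9 was -0.50, against -0.01 over all genes. By treat against 1.5-fold, 0 of the 9 were called lower, where 1.65% of all genes were called lower (5 were lower at an unadjusted p under 0.05 in the moderated test). The shares of all genes at an unadjusted p under 0.05 and with voom are not given here, so those counts have no background beside them.

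Cs was at 25.6, 21.8 and 28.4 FPKM with MLN0128, every library below every vehicle tumor, with a log2 fold change of -1.04 (limma SE 0.163, adjusted p = 0.000935). These values overlapped the 18.8 to 25.0 FPKM of normal liver. Mdh2 was at 80.0, 93.9 and 84.9 FPKM, also below all vehicle tumors, with a log2 fold change of -0.98 (limma SE 0.131, adjusted p = 0.000454).

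Idh2 was at 69.8, 87.3 and 65.0 FPKM, again without overlap, and fell by 0.70 on the log2 scale (SE 0.173, adjusted p = 0.00992). Idh3a was at 20.3, 23.5 and 18.3 FPKM and fell by 0.66 (SE 0.168, adjusted p = 0.0118), staying above all normal livers. Without MLN0128 replicates 1 and 2, the single library left gave 3 of these 4 calls, assumed to vary like the other groups. In that fit the log2 fold change of Idh3a was -0.82 with an adjusted p of 0.0544, and those of Cs, Mdh2 and Idh2 were -0.87, -1.0 and -0.88. After quantile normalization the fall of Idh2 shrank to -0.37 (adjusted p = 0.037).

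The remaining 5 enzymes did not pass the test with the deposited scaling and all libraries. Sucla2, at 19.1, 28.5 and 19.5 FPKM, lay just below the vehicle tumors in every library (log2 difference -0.50, 95% interval -0.94 to -0.06, adjusted p = 0.0772). It passed as lower without MLN0128 replicate 2 (-0.68, adjusted p = 0.0256) and without everolimus replicate 2 (adjusted p = 0.0356). Idh3g, at 58.6, 61.7 and 45 FPKM, had a log2 difference of 0.31 (95% interval 0.00 to 0.62, adjusted p = 0.115). It passed as higher under the other scalings, by 0.46 with plain library totals, 0.55 with equal FPKM sums and 0.65 after quantile normalization (adjusted p = 0.00903, 0.00486 and 0.00216). Its 2 high libraries were the ones that held Xist RNA. The library without it was at the level of the vehicle tumors, and without the first 2 the difference was 0.04 (adjusted p = 0.915). Idh3g is X-linked, and the part of the animals' X and Y content in this value was not tested. Without MLN0128 replicate 3 the difference was 0.45 (adjusted p = 0.0253). Fh1 (45.4, 64.1 and 36.6 FPKM), Idh3b (77.2, 87.0 and 62.5 FPKM) and Ogdh (25.5, 27.7 and 22.5 FPKM) overlapped the vehicle tumors, with log2 differences of -0.18 (95% interval -0.67 to 0.32), 0.07 (-0.27 to 0.41) and -0.23 (-0.53 to 0.08). Idh3b turned to -0.19 without MLN0128 replicates 1 and 2, and passed as higher after quantile normalization (0.39, adjusted p = 0.0239). MLN0128 replicate 2 had the highest value of its group for 8 of the 9 enzymes and the lowest for Cs.

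**Figure D3:**
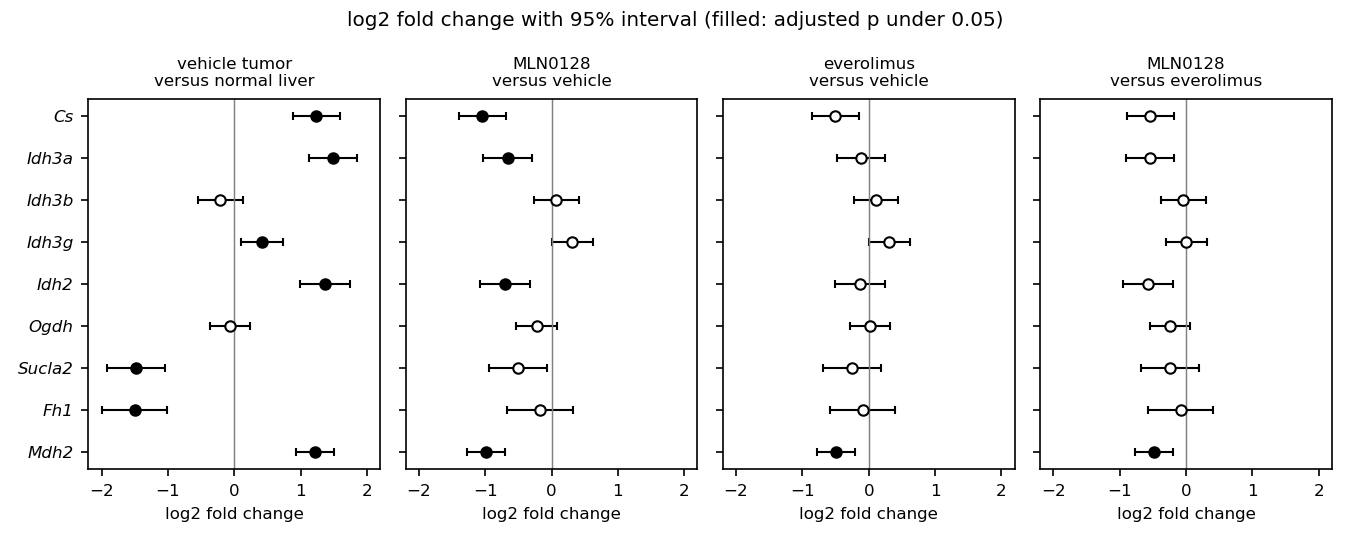
Fitted log2 fold change of each enzyme (x axis, log2 of FPKM + 1) with its 95% interval in 4 comparisons, with filled points for an adjusted p under 0.05. The 5 filled points above 0 and 2 below 0 for vehicle tumors against normal liver are followed by 4 below 0 with MLN0128 and 1, Mdh2, with everolimus and between the drugs. The comparisons of vehicle tumors with normal liver and of each drug with vehicle share the vehicle libraries, so opposite signs are partly built in.

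A further comparison asked the same of everolimus, against the same 3 vehicle libraries that served for MLN0128. Only Mdh2 passed the test. It stood at 134, 105 and 126 FPKM, below all vehicle tumors (log2 fold change -0.49, SE 0.131, adjusted p = 0.0371). That made 1 of 9 lower, where 6.05% of all tested genes were called lower, and 0 higher by limma's moderated test, where 3.78% of all tested genes were called higher (2 lower and 1 higher at an unadjusted p under 0.05, and 1 and 0 with voom). For the counts in brackets the shares of all genes are not given here. The call for Mdh2 was lost without normal liver replicate 1, without any 1 of the vehicle tumors or without any 1 of the everolimus tumors, with log2 fold changes from -0.57 to -0.39 and adjusted p from 0.033 to 0.135 over the libraries left out in turn.

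Cs was at 40.4, 28.9 and 43.2 FPKM with everolimus, also below all vehicle tumors, but did not pass (log2 difference -0.50, 95% interval -0.86 to -0.15, adjusted p = 0.0717). Idh2 (124, 95 and 113 FPKM) and Idh3a (35.8, 22.8 and 34.5 FPKM) overlapped the vehicle tumors, with log2 differences of -0.13 (95% interval -0.51 to 0.25) and -0.12 (-0.48 to 0.25). Idh3g was at 64.4, 49.1 and 51.4 FPKM, above all vehicle tumors (0.31, 95% interval 0.00 to 0.62, adjusted p = 0.185), in libraries that held no more than 0.0201 FPKM of Xist, and it passed as higher after quantile normalization (0.41, adjusted p = 0.0485). Everolimus replicate 2 had the lowest value of its group for 8 of the 9 enzymes. Sucla2 (32.2, 19.3 and 29.1 FPKM), Fh1 (63.4, 39.6 and 50.6 FPKM), Idh3b (87.0, 63.0 and 83.4 FPKM) and Ogdh (33.2, 28.6 and 28.3 FPKM) all overlapped the vehicle tumors, with adjusted p of 0.455, 0.836, 0.696 and 0.954.

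The drugs were given at the same dose and over the same time, and were compared directly over the 9 genes, with p adjusted over all tested genes. Mdh2 was lower with MLN0128 than with everolimus (log2 fold change -0.49, SE 0.131, adjusted p = 0.0400, no overlap). The differences of Idh2 (-0.58, 95% interval -0.95 to -0.20, adjusted p = 0.0579), Cs (-0.54, -0.90 to -0.18, adjusted p = 0.0588) and Idh3a (-0.54, -0.91 to -0.17, adjusted p = 0.0646) were of the same size and did not pass. Idh2 and Cs did not overlap between the drugs and Idh3a did. Thus 1 of 9 was lower, where 5.54% of all tested genes were called lower, and 0 higher by limma's moderated test, where 3.99% of all tested genes were called higher (4 lower and 0 higher at an unadjusted p under 0.05, and 3 and 0 with voom). Neither for the counts in brackets nor for the fits with libraries left out are the shares of all genes given here. The intervals of Idh3b (-0.38 to 0.30), Idh3g (-0.31 to 0.31) and Ogdh (-0.55 to 0.06) spanned 0, as did those of Sucla2 (-0.68 to 0.19) and Fh1 (-0.58 to 0.41). Which enzymes passed rested on single libraries: without everolimus replicate 2 there were 4 (Cs, Idh2, Idh3a and Mdh2), without normal liver replicate 2 or MLN0128 replicate 2 there were 2, without MLN0128 replicate 3 the 1 that passed was Cs (-0.62, adjusted p = 0.0484) and not Mdh2 (-0.48, adjusted p = 0.0646), and there were 0 without normal liver replicate 1, any 1 vehicle tumor, MLN0128 replicate 1 or everolimus replicate 1 or 3. Without MLN0128 replicates 1 and 2, the ones that held Xist RNA, the Mdh2 difference was -0.51 (adjusted p = 0.186). It was -0.35 with plain library totals (adjusted p = 0.0815), -0.24 with equal FPKM sums (adjusted p = 0.241) and -0.23 after quantile normalization (adjusted p = 0.212).

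Against normal liver, the drug-treated tumors showed what remained of the tumor pattern. With MLN0128, 3 of the 9 were higher (Idh3a by 0.83, Idh3g by 0.73 and Idh2 by 0.66 on the log2 scale), where 37.1% of all genes were called higher, and 2 were lower (Sucla2 at -1.99 and Fh1 at -1.68), where 35.5% were called lower. Without MLN0128 replicates 1 and 2, Idh2 was at 0.49 and its call was lost (adjusted p = 0.0985), which left 2 higher. Cs (0.19, 95% interval -0.16 to 0.55, adjusted p = 0.301) and Mdh2 (0.24, -0.05 to 0.52, adjusted p = 0.122) did not pass the test against normal liver, although all 3 values of Mdh2 were above all normal livers. Both calls depended on the scaling. With plain library totals, equal FPKM sums and quantile normalization, Cs was higher than in normal liver by 1.23, 1.61 and 0.68 on the log2 scale (limma adjusted p = 3.56e-05, 4.85e-06 and 0.00313). Mdh2 was higher by 1.31, 1.67 and 1.31 (adjusted p = 9.26e-07, 1.14e-07 and 9.81e-07), while the median of all genes was 0.72, 1.21 and 0.05. With everolimus, 5 of the 9 were higher, where 35.9% of all genes were called higher, and 2 were lower, where 34.3% were called lower. The log2 fold changes were 1.37 for Idh3a, 1.24 for Idh2, 0.73 for Cs, 0.73 for Idh3g, 0.72 for Mdh2, -1.74 for Sucla2 and -1.60 for Fh1. Idh3b and Ogdh passed in neither, with log2 differences from -0.29 to -0.05 that turned positive with plain library totals, with equal FPKM sums and with quantile normalization. In the last, Idh3b was higher than in normal liver by 0.93 with MLN0128 (adjusted p = 2.29e-05) and 0.74 with everolimus (adjusted p = 0.000144). Ogdh was at 0.28 with MLN0128 (adjusted p = 0.0647) and higher by 0.36 with everolimus (adjusted p = 0.0232), where the medians of all genes were 0.05 and 0.03.

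Ratios of enzymes within a library do not depend on the scaling between libraries. They would still hold any reads of Nop56 counted for Idh3b or of Kmo counted for Fh1, which overlap on the opposite strand. They were chosen after the values were seen and are given as a description, with an exact two-sided permutation test of 3 against 3 libraries, which cannot go below p = 0.1. Within the NAD-dependent isocitrate dehydrogenase, the catalytic subunit changed against its partners. In normal liver Idh3a per Idh3b was 0.146, 0.142 and 0.118, and in vehicle tumors 0.454, 0.487 and 0.452. Under MLN0128 it was 0.263, 0.270 and 0.293, and under everolimus 0.412, 0.362 and 0.414. No pair of groups overlapped, and each of the 6 comparisons reached an exact permutation p of 0.1. The ratio was 3.45-fold higher with vehicle than in normal liver and 0.592 times the vehicle ratio with MLN0128. In normal liver Idh3a per Idh3g was 0.347 ± 0.0698 against 0.755 ± 0.0191 in vehicle, 0.378 ± 0.0302 in MLN0128 and 0.564 ± 0.104 in everolimus tumors (SD, n = 3). Normal liver and MLN0128 overlapped in this ratio, which holds the X-linked Idh3g (exact permutation p = 0.7).

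By contrast, the ratio of both isocitrate dehydrogenases to each other varied little. In normal liver Idh2 per Idh3a was 4.15 ± 0.450 against 3.64 ± 0.221 in vehicle, 3.57 ± 0.139 in MLN0128 and 3.64 ± 0.470 in everolimus tumors, and groups overlapped in each comparison apart from MLN0128 against normal liver. For the first enzyme of the cycle against fumarase, Cs per Fh1 was 0.141, 0.191 and 0.106 in normal liver and 0.795, 1.16 and 1.02 with vehicle, a 6.93-fold difference (exact permutation p = 0.1). With MLN0128 it was 0.564, 0.340 and 0.776, below the vehicle tumors (exact permutation p = 0.1), and with everolimus 0.637, 0.730 and 0.854, overlapping them.

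**Figure D4:**
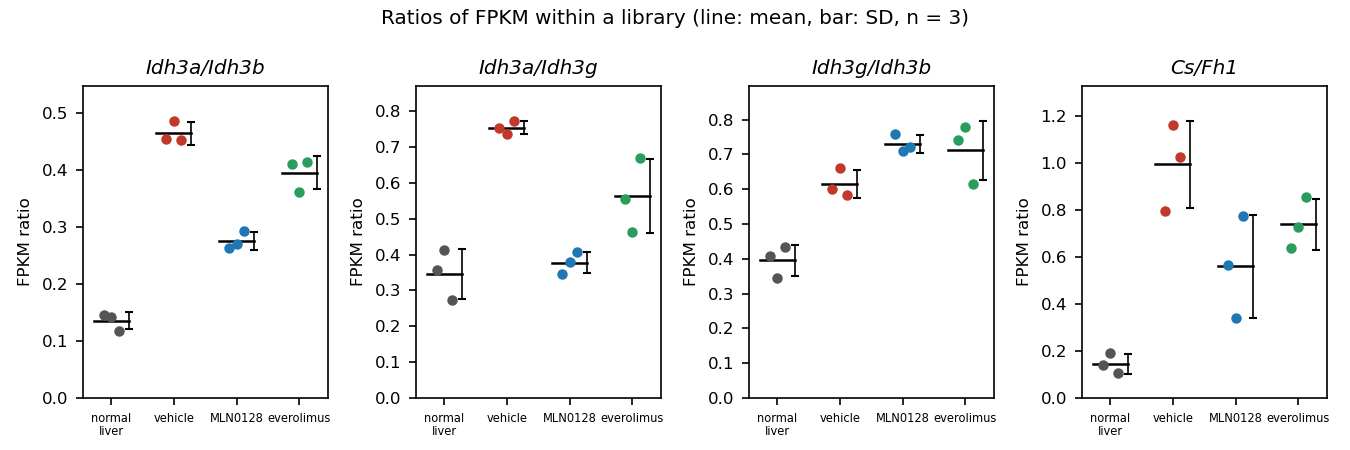
Ratio of the FPKM of 2 enzymes within each library (points), with the group mean (line) and SD (bar, n = 3) on axes that start at 0. Idh3a per Idh3b separates all 4 groups (means 0.135, 0.464, 0.275 and 0.396), Idh3a per Idh3g with MLN0128 overlaps normal liver, and Cs per Fh1 is lowest in normal liver.

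The other genes of the cycle were read from a list of 10 that holds further subunits and complex II. With the deposited scaling they were mostly lower in tumors. This list and those that follow are given with the deposited scaling only. For vehicle tumors against normal liver, plain library totals moved the median of all genes by 0.56 and equal FPKM sums by 0.94. The member Idh3b went from -0.21 to 0.71 and 0.98, so the smaller falls in these lists may depend on the scaling. In vehicle tumors 1 of the 10 was higher and 7 were lower than in normal liver, where 36.0% and 33.0% of all tested genes were called. The higher one was Ogdhl, a relative of Ogdh (2.41, adjusted p = 2.27e-06). The lower ones included the other subunits of succinyl-CoA ligase, Suclg1 (-0.81) and Suclg2 (-0.42), and all 4 subunits of succinate dehydrogenase (complex II), from -1.42 for Sdha to -0.66 for Sdhd. These names were chosen after their values were seen. With MLN0128, 4 of the 10 were lower than with vehicle, where 17.1% of all tested genes were called lower. Among the 4 were Dld (the shared dihydrolipoyl dehydrogenase of the 2-oxoglutarate and pyruvate complexes) at -0.89 (SE 0.172, adjusted p = 0.00277) and Sdhd at -0.60 (SE 0.207, adjusted p = 0.0449). The other 2 were Dlst (-0.37) and Sdhb (-0.58), named after their values were seen.

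The cytosolic counterparts Aco1, Idh1 and Mdh1 were all lower in vehicle tumors than in normal liver, with log2 fold changes of -1.02, -2.81 and -1.89. Of all tested genes 33.0% were called lower there. The mitochondrial enzymes Idh2 and Mdh2, which catalyse the same conversions as Idh1 and Mdh1, were higher. With MLN0128, 1 of the 3 cytosolic genes was lower than with vehicle, against 17.1% of all tested genes. It was Idh1 at -0.94 (SE 0.231, adjusted p = 0.0101).

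Among 13 genes for the entry of pyruvate, 4 were higher and 7 lower in vehicle tumors than in normal liver. Of all tested genes 36.0% were called higher there and 33.0% lower. With MLN0128, 1 of the 13 was higher than with vehicle and 4 were lower, against 14.9% and 17.1% of all tested genes. With everolimus 2 were lower, against 6.05% of all tested genes. Pdk4, a kinase that switches off pyruvate dehydrogenase, measured 0.898, 1.14 and 1.56 FPKM in normal liver against 29.5, 56.2 and 39.4 FPKM in vehicle tumors. It was at 7.16, 3.13 and 2.99 FPKM with MLN0128, or -3.01 on the log2 scale (SE 0.519, adjusted p = 0.00158), and at 3.02, 17.6 and 18.6 FPKM with everolimus (-1.86, adjusted p = 0.0443). Mpc1, a subunit of the mitochondrial pyruvate carrier, was lower with MLN0128 by -1.10 (SE 0.210, adjusted p = 0.00266), and Pdhx, a structural component of pyruvate dehydrogenase, by -0.66 (SE 0.144, adjusted p = 0.00556).

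Of 14 tested genes for citrate export and refilling of the cycle, 3 were higher and 8 lower in vehicle tumors than in normal liver. Of all tested genes 36.0% were called higher there and 33.0% lower. With MLN0128 7 of the 14 were lower than with vehicle, against 17.1% of all tested genes. Slc25a1, the carrier that takes citrate out of the matrix, was lower with MLN0128 at -1.10 on the log2 scale (SE 0.159, adjusted p = 0.000622). Pck2, the mitochondrial phosphoenolpyruvate carboxykinase, measured 24.4, 32.2 and 20 FPKM with vehicle and 3.69, 3.56 and 12.1 FPKM with MLN0128 (-1.99, SE 0.346, adjusted p = 0.00164). The malic enzyme Me1 (-1.26, adjusted p = 0.0121) and the aspartate aminotransferase Got1 (-0.63, adjusted p = 0.0229) were lower too. In the opposite direction, 2 of 4 genes for lipoylation and the removal of 2-hydroxyglutarate were higher with MLN0128, against 14.9% of all tested genes. They were Lipt1 (0.61, adjusted p = 0.00979) and D2hgdh (0.59, adjusted p = 0.00659).

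**Figure D5:**
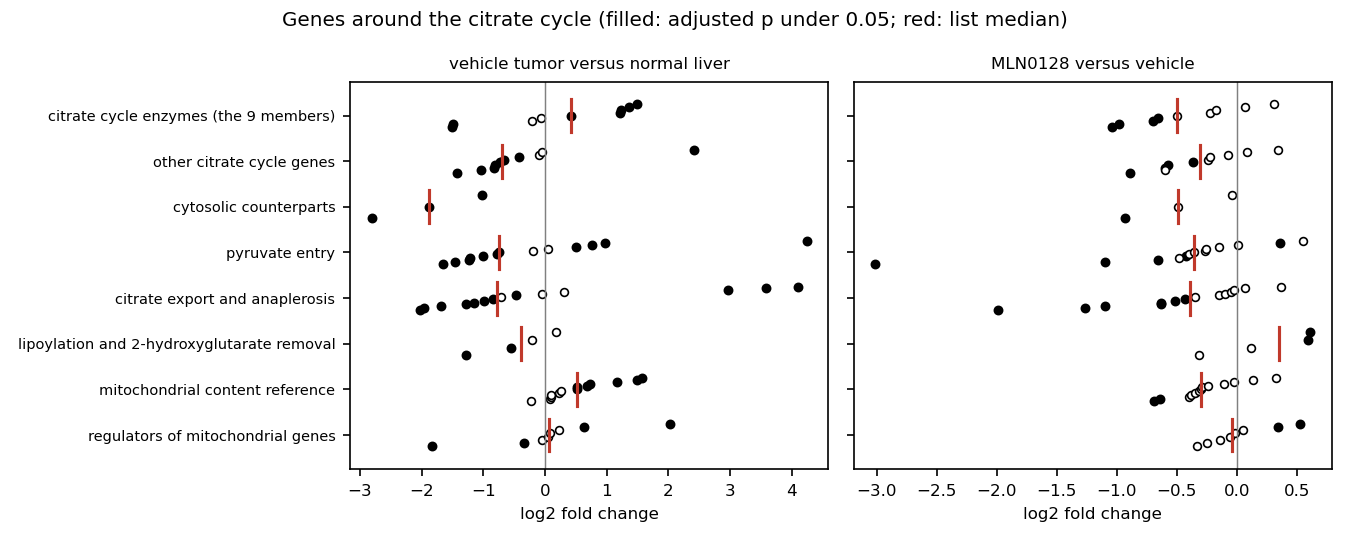
Fitted log2 fold change of each gene in the 9 enzymes and 7 lists of neighbouring genes (rows), for vehicle tumors against normal liver and for MLN0128 against vehicle, with filled points for an adjusted p under 0.05 and a red line at the list median. The list medians were 0.42 for the 9 enzymes and -0.69 for the other citrate cycle genes in tumors, and -0.50 and -0.31 with MLN0128.

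A list of 13 genes for mitochondrial import, chaperones, channels and other functions served as a reference. It is not a measure of mitochondrial RNA as a whole. In vehicle tumors 7 of the 13 were higher than in normal liver, against 36.0% of all tested genes, with a list median of 0.51. The summed FPKM of the 13 was 1070 to 1190 in normal liver and 1740 to 1880 with vehicle. The chaperones Hspd1 and Hspa9 weigh heavily in that sum. Their means were 635 and 379 FPKM with vehicle and 283 and 262 FPKM in normal liver. With MLN0128 the sum of the 13 was 1360 to 1600, below all vehicle tumors, with a list median of -0.30. Of the 13 genes 2 were lower, Vdac3 (-0.69) and Timm23 (-0.64), against 17.1% of all tested genes. With everolimus the sum of the 13 was 1500 to 2110. The part of mitochondrial content in the values of the 9 enzymes was not tested. Of 8 regulators of mitochondrial genes, 2 were higher in vehicle tumors (Pprc1 at 2.03 and Nrf1 at 0.63) and 2 lower (the mouse Myc gene as listed at -1.83, and Gabpa at -0.35). Of all tested genes 36.0% were called higher there and 33.0% lower. With MLN0128, 2 of the 8 were higher than with vehicle (Pprc1 at 0.52 and Gabpa at 0.34), against 14.9% of all tested genes. These names were chosen after the values were seen. Summed proliferation markers were at 1.31 to 5.34 FPKM in normal liver against 83.6 to 104 in vehicle, 43.4 to 140 in MLN0128 and 90.9 to 125 in everolimus tumors. Summed cholangiocyte markers were at 36.8 to 92.5 FPKM in vehicle tumors, against 40.2 to 43.6 in normal liver. They were at 10.2 to 28.1 FPKM under MLN0128 and 17.2 to 61.8 under everolimus. For each drug 3 of 4 tested cholangiocyte markers were lower than in vehicle tumors, against 17.1% and 6.05% of all tested genes. Their part in the values of the enzymes was not tested.

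As a description, each gene was compared with the mean standardized profile of the 9 enzymes. Over the 12 libraries the members themselves ran from r = -0.03 for Fh1 and 0.014 for Sucla2 to 0.748 for Mdh2, so that no single profile stood for the cycle. The most similar other genes were Vdac1 (r = 0.957), Kctd15 (0.915), Timm13 (0.911), Mtch1 (0.91) and Afg3l2 (0.904). Over the 9 tumor libraries alone, Fh1 and Sucla2 came together with the rest (0.854 and 0.922), members ran from 0.15 for Idh3g to 0.938 for Idh3a, and among the most similar other genes were Afg3l2 (0.981), Ndufc1 (0.972), Vdac1 (0.958) and Sod2 (0.956). Depth and scaling differed between libraries, also within a group (scaling factors of 1.26, 1.15 and 1.37 for MLN0128), which can itself move genes together. Each member is also part of the mean profile it was compared with. These values therefore carry no test.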

How the data were processed

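RNA was sequenced in 12 libraries of mouse liver and liver tumors. The deposited values are the authors' FPKM, made from libraries by Novogene, with reads counted per Ensembl gene, converted to Entrez identifiers and named with org.Mm.eg.db. The submitters' processing notes list GRCm38 and FastQC 0.11.7, and the aligner is not given in the sources used here. The authors called genes with edgeR's glmTreat. FPKM are not counts, so log2(FPKM + 1) of the 14397 genes that reached 0.5 FPKM in 3 or more libraries was fitted with limma 3.58.1 (R 4.3.3), all 12 libraries in 1 model, with an intensity trend and Benjamini-Hochberg adjustment at 0.05. The members and lists were chosen with earlier results of these data known, and named neighbours were those called between MLN0128 and vehicle with a fold change over 1.5, at most 4 per list, unless stated. FPKM and exon lengths (GENCODE M21) gave whole reads for 98.2% to 98.8% of values under 20 reads, within 0.1 read. The deposited FPKM carry the authors' scaling, with factors of 0.585 to 0.595 in normal liver and 1.10 to 1.37 in tumors. The fit was tested on simulated data. A search of the annotated transcripts for near-identical copies of the 9 genes, at 95% identity over 200 bases or more, found none. Me3, Tf and Cd3e, listed as neighbours or markers, were not used here. Withheld genes, and results that need them, are not reported here.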

Additional observations from a re-analysis of the deposited data

How the results depend on the processing

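The call did not change for 1188 of 1269 values of single enzymes under an alternative, in 36 of which the sign changed with no call in either fit. With the sign kept, a call was lost in 43 and gained in 22. In 16 more, all of Idh3b or Ogdh, the sign changed and a call was gained that the main fit did not have. None of these 16 came with a library left out. Scaling made these changes of sign. With plain library totals, equal FPKM sums and quantile normalization, Idh3b turned to 0.71, 0.98 and 0.54 in vehicle tumors against normal liver, 0.93, 1.29 and 0.93 with MLN0128 and 0.83, 1.08 and 0.74 with everolimus. Ogdh turned to 0.83 and 1.11, 0.75 and 1.12, and 0.86 and 1.12 under the first 2 of these, and to 0.36 with everolimus under quantile normalization. Plain library totals shifted the median of all genes in vehicle tumors against normal liver by 0.56 and equal sums by 0.94.

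The counts of enzymes called moved as follows. Equal FPKM sums gave 0 lower in vehicle tumors against normal liver, and 7 higher and 1 lower for MLN0128 against normal liver, where plain totals also gave 7 higher and quantile normalization 6. For MLN0128 against normal liver, the median log2 fold change of all genes under these 3 settings was 1.21, 0.72 and 0.05. The shares of all genes called under these settings are not given here. For MLN0128 against vehicle, plain totals and equal sums gave 1 higher and quantile normalization 2, and quantile normalization gave 1 higher for everolimus against vehicle. The treat test gave 0 lower for each drug against vehicle and for MLN0128 against everolimus, 0 higher for MLN0128 against normal liver and 2 higher for everolimus against normal liver. MLN0128 against everolimus had 0 lower with each of the 3 scalings, with only the 2 groups compared and without MLN0128 replicates 1 and 2, and 3 lower with voom. Everolimus against vehicle had 0 lower with only the 2 groups compared. With the replicate number as a block there were 0 lower for everolimus against vehicle and 0 lower for MLN0128 against everolimus, and no other count of enzymes moved by over 1.5 times. Deviations of 18 same-numbered pairs from their group means correlated from -0.289 to 0.148, with 1 over 0.1. A differently numbered pair, vehicle replicate 3 and everolimus replicate 2, reached 0.396. Deviations within a group of 3 sum to 0, so these values cannot decide whether the numbers pair the samples. Leaving out 1 library gave 0 to 1 higher (1 without MLN0128 replicate 3) and 4 to 5 lower for MLN0128 against vehicle, 0 to 1 lower for everolimus against vehicle and 0 to 4 lower for MLN0128 against everolimus. The cause of these moves was not tested. With 3 libraries per group, depth limited the enzymes less than the spread between libraries.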
